A study of Mus musculus with 24 samples.

Results

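The genes described here are 42 mouse genes of inflammation and NF-kB signalling, out of 21887 RefSeq protein-coding genes on chromosomes 1 to 19, X and Y. They were chosen by name: 17 regulators of the pathway (5 NF-kB subunits, 5 inhibitors and 7 kinases or adaptors), 15 secreted factors (7 cytokines and 8 chemokines) and 10 other members (3 receptors or their adaptor, 5 other transcription factors or feedback genes and 2 further induced genes). A peak counted at a gene end when its summit, the authors' point of highest signal, lay within 1000 bp of either end of the gene. It counted in the wider window when the summit lay in the gene body or within 10000 bp on either side.

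NF-kB is a family of dimeric transcription factors that inhibitor proteins hold in the cytoplasm of resting cells. Signals from cytokine and Toll-like receptors activate a kinase complex that marks the inhibitors for destruction, and the freed dimers enter the nucleus and bind kappaB sites, among them sites at inhibitor genes that close a feedback loop. In the injured kidney, tubule cells are a known source of NF-kB-driven cytokines and chemokines, which draw leukocytes into the tissue.

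The study profiled Sox9-lineage cells of the mouse kidney by CUT&RUN, in which an antibody directs a nuclease to cut and release the DNA around its target. Sox9 is a transcription factor that tubule cells switch on after injury, and H3K4me3 is a histone mark of active gene starts that the submitters used as the positive control. There were 4 pellets of sorted tdTomato-positive cells at each of 48 h and 10 days after injury, and each pellet gave a Sox9, an H3K4me3 and an input aliquot; the 8 Sox9 and 8 H3K4me3 peak lists were used and the 8 inputs were not analysed here. Libraries are named below by antibody, time and the pellet number in the labels, replicates 1 to 4. Every group shared 1 background: male mice aged 9 to 12 weeks and weighing 25 to 30 g, of genotype Sox9IRES-CreERT2/+:R26RtdT/+, with ischaemia and reperfusion of both kidneys and tamoxifen given at the injury, and cells fixed in 0.2% PFA. The cells are thus those in which the Sox9 locus drove the recombinase around the time of injury, together with their descendants, and the animals carry that allele in 1 copy. No uninjured group was among the samples, and the labels do not say how many animals gave a pellet. The cell type field names the later time for every sample, so times were read from the sample titles.

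The lists were of very unequal length, from 7706 to 85415 peaks for Sox9 and from 25811 to 88496 for H3K4me3, and both of the longest came from 10 days replicate 1. The peak heights, solved from the authors' fold and p-value, came in whole steps, and 92.5% to 97.8% of the peaks of a list stood at exactly 1 step, the lowest height possible. Reads per library were not given, so the number of libraries with a summit is the main evidence for a gene. Over all genes, 9.98% ± 5.28 (SD, n = 8 libraries) had a Sox9 summit at an end in a library and 17.3% ± 9.54 (SD, n = 8) an H3K4me3 summit. As a check of the cell label, 5 proximal tubule markers had an H3K4me3 summit at an end in 6 of 40 gene and library pairs, 10 immune cell markers in 4 of 80 and 9 injured tubule markers in 4 of 72. These shares of 15.0%, 5.00% and 5.56% were all below that of all genes, so the label could not be checked on these peaks. Peaks from pooled cells do not tell fewer cells with a peak from less signal in each.

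The starts of 9 members are shown as examples with and without peaks, which does not compare regulators with secreted factors. Of these, 5 had peaks between 250 bases before and 50 bases after the start, and 4 did not. RefSeq promoter entries, of build GRCm38.p6, matched 31 of the 42 members and hold 250 bases before and 50 bases after a start. The other members, Nfkb1, Relb, Nfkbiz, Ikbkb, Il34, Ccl2, Ccl5, Ccl7, Cxcl16, Tlr4 and Cebpd, are described by their gene ends alone. The 250 bases before the start are printed below, from 5′ to 3′ on the strand of the gene, with capitals for matches to the kappaB consensus and to AACAAT, the core of Sox sites, each searched on both strands. The first 5 are Nfkbia (chr12:55492648-55492897, minus strand), Nfkbie (chr17:45555450-45555699, plus strand), Irf1 (chr11:53769764-53770013, plus strand), Birc2 (chr9:7837058-7837307, minus strand) and Traf2 (chr2:25546941-25547190, minus strand).
Nfkbia: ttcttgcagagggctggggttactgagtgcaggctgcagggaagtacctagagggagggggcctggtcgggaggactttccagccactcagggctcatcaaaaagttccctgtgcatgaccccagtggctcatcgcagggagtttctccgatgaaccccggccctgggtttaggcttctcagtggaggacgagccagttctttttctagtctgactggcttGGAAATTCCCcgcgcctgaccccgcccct
Nfkbie: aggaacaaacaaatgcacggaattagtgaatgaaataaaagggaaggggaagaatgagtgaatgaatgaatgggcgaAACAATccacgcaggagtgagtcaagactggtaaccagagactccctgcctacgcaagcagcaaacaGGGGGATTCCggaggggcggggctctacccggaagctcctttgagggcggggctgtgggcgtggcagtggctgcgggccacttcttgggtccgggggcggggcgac
Irf1: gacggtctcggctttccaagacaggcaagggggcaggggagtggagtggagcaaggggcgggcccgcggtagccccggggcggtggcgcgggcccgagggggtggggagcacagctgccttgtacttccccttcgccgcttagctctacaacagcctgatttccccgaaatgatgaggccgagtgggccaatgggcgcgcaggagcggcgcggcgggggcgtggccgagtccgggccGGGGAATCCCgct
Birc2: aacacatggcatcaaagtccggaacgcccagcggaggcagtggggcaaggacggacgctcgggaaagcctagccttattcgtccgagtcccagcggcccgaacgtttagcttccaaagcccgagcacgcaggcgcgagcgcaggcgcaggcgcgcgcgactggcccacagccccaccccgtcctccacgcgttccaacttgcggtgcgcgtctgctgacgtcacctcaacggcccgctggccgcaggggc
Traf2: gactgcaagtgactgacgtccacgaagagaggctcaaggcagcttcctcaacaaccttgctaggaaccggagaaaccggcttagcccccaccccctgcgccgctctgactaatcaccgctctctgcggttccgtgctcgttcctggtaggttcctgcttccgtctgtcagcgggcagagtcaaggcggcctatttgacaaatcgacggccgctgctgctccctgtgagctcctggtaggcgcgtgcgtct
In Nfkbia and Irf1 the capitals are a kappaB match. In Nfkbie the first capitals are AACAAT and the second a kappaB match. The printed bases of Birc2 and Traf2 hold neither, but the Birc2 entry holds 1 AACAAT, in the 50 bases after the start. Over these starts, from 250 bases before to 50 after, the Traf2 entry had a peak in 3 libraries, all H3K4me3 at 10 days, and that of Birc2 in 3, all Sox9. Nfkbia, Nfkbie and Irf1 each had peaks in 1 Sox9 and 1 H3K4me3 library there. The merged region of the Nfkbia peaks, chr12:55492246-55492648, ended at the printed base next to the start. The printed Nfkbia kappaB match therefore lay outside that region.

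The 4 secreted factors shown for contrast had no peak over the start in any of the 16 libraries, though each holds a kappaB match, given in capitals. They are Il6 (chr5:30012864-30013113, plus strand), Cxcl1 (chr5:90890995-90891244, plus strand), Cxcl10 (chr5:92348890-92349139, minus strand) and Ccl20 (chr1:83116516-83116765, plus strand).
Il6: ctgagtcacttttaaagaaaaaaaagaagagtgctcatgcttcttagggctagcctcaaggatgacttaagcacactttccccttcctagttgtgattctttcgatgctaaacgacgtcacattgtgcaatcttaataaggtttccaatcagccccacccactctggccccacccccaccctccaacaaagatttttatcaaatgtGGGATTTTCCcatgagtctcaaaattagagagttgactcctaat
Cxcl1: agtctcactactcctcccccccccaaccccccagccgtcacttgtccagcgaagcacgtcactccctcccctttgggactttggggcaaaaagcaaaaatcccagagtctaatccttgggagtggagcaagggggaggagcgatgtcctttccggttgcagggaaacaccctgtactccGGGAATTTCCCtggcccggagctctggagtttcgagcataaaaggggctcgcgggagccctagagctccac
Cxcl10: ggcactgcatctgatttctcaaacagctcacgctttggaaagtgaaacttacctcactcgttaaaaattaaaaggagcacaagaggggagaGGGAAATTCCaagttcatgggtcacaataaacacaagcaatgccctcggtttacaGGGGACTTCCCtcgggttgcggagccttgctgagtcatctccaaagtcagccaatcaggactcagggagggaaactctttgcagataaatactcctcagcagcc
Ccl20: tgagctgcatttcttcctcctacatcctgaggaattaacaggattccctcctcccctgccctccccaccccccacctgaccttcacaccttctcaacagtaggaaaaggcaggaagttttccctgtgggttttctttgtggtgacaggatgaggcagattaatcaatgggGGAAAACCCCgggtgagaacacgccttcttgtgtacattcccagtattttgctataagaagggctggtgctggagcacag
The Cxcl1 capitals hold a near-palindrome that matches on both strands with an overlap, and Cxcl10 has 2 separate runs. Over the whole 300 bases, kappaB matches stood in the promoters of 14 of 31 members (45.2%), beside 10.5% of the 17492 genes with an entry. They stood in 5 of 13 regulators and in 6 of 10 cytokine and chemokine genes. AACAAT stood in 6 of 31 members (19.4%), beside 10.6% of all genes. Of the members with a kappaB match, 7 had a peak over a promoter in at least 1 library and 7 did not, while 9 members without one had a peak and 8 did not. Only 8 of the 31 had such a peak in 2 or more libraries, and 2 in 3 or more. Such peaks did not divide regulators from secreted factors. Csf2 had one, in Sox9 48 h replicate 3, while the regulators Birc3 and Traf1 had none. The share of all genes with a peak over a promoter is not given here, so these counts have no background beside them. A match describes letters only, and no library used here measured the binding of NF-kB.

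Among the members as a whole, gene ends carried peaks about as often as those of other genes. Sox9 summits lay at 9.23% ± 5.89 (SD, n = 8) of members, 31 of 336 gene and library pairs, beside 9.98% of all genes and 10.3% expected from gene length. That expectation gives each member the share found in the same library among genes of its length class, in 10 classes. H3K4me3 summits lay at 18.8% ± 10.5 (SD, n = 8) of members, 63 of 336 pairs, beside 17.3% of all genes and 18% expected. In the 4 Sox9 libraries at 48 h, 1, 3, 3 and 3 of the 42 members had one, and in the 4 at 10 days 9, 2, 5 and 5. For H3K4me3 the numbers were 7, 5, 9 and 2 at 48 h and 17, 7, 10 and 6 at 10 days. The highest of each antibody came from its longest list, and the times overlapped for both.

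An end summit recurred in at least 3 of 8 Sox9 libraries at 4 of 42 members, Nfkbia, Nfkbie, Birc2 and Cebpb, beside 6.32% of all genes. The same held in H3K4me3 at 11 of 42, beside 19.5% of all genes: Nfkb1, Rela, Relb, Nfkbia, Nfkbib, Traf2, Ikbkb, Myd88, Cebpb, Cebpd and Icam1. Only Nfkbia and Cebpb stood in both sets. No Sox9 end summit was present at 22 members (48.5% of all genes had none), no H3K4me3 end summit at 14 (31.7%), and neither at 10 (21.5%). These shares of the members, 52.4%, 33.3% and 23.8%, lay near those of all genes.

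**Figure D1:**
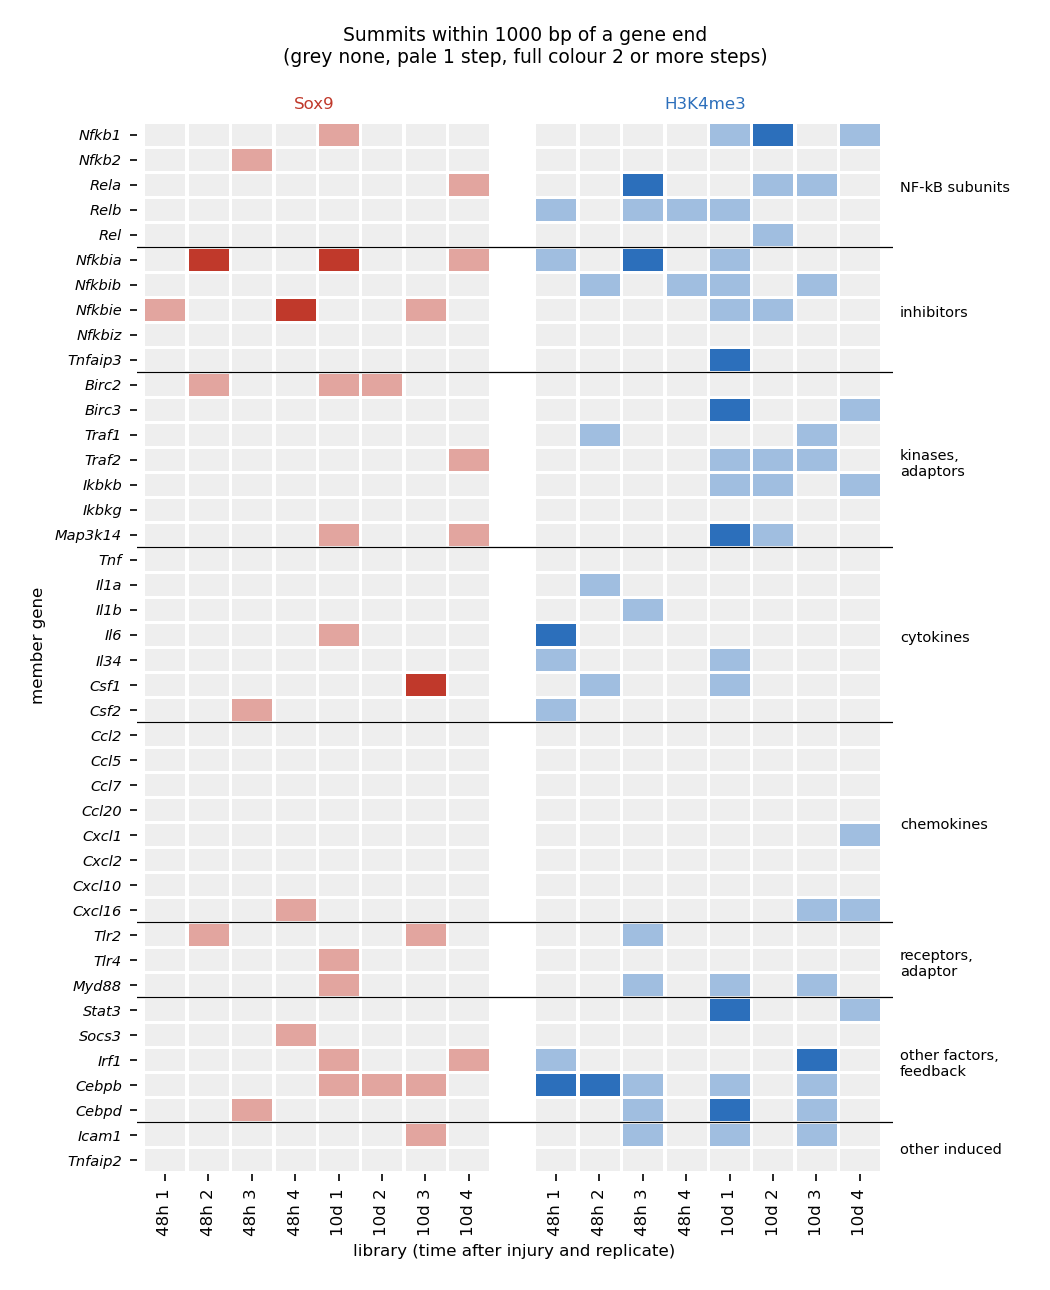
Each row is a member, grouped by role, and each column a library; grey marks no summit within 1000 bp of a gene end, pale colour summits of 1 step and full colour at least 1 summit of 2 or more steps. The colour is scattered, no member is filled across the libraries of an antibody, and 6 of the 8 chemokine rows are grey throughout.

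The 5 subunit genes encode the DNA-binding proteins of the family, and H3K4me3 summits were present at the ends of 4 of them while Sox9 summits reached 1 library at most. Nfkb1, which encodes a subunit of the classical dimer, had 1, 2, 0 and 1 H3K4me3 end summits in replicates 1 to 4 at 10 days and 0 in each library at 48 h. Its only Sox9 end summit was in 10 days replicate 1. Those of 3 H3K4me3 libraries and the Sox9 one overlapped in 1 merged region of 4 libraries, chr3:135691267-135691552, inside the higher-numbered end of the gene. In the wider window Nfkb1 had the most H3K4me3 summits of any member, 2, 1, 4 and 3 at 48 h and 9, 8, 3 and 3 at 10 days, beside 1, 1, 0 and 2 and then 3, 0, 0 and 0 for Sox9. It is also the longest member, at 107315 bp, and per 100 kb of window its 3.24 H3K4me3 summits a library were fewer than the 5.29 of Rela.

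Rela, the main activating subunit, had 0, 0, 1 and 0 H3K4me3 end summits at 48 h and 0, 2, 2 and 0 at 10 days, and its only Sox9 end summit was in 10 days replicate 4. The Sox9 summit and the one of 2 steps in H3K4me3 48 h replicate 3 were 255 and 257 bp into the gene. In the wider window Rela had no Sox9 summit at 48 h and 2, 0, 0 and 3 at 10 days, and 1, 2, 2 and 1 H3K4me3 summits at 48 h with 1, 2, 4 and 0 at 10 days. Relb, a subunit of the alternative pathway, had 1, 0, 1 and 1 H3K4me3 end summits at 48 h and 1, 0, 0 and 0 at 10 days, and no Sox9 end summit. All 4 lay within 331 bp of the same end. Nfkb2, the other alternative subunit, had a single Sox9 end summit at its 3′ side, and Rel a single H3K4me3 one 83 bp into the gene. Inside Nfkb2, 2 listed starts with kappaB matches had peaks of both antibodies over their promoter entries in 10 days replicate 1. These peaks lay outside the window of the outer ends of Nfkb2.

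The inhibitors hold the dimers back, and Nfkbia, the classical feedback inhibitor, had end summits in 6 of 16 libraries, the most of any regulator. Sox9 end summits numbered 0, 1, 0 and 0 at 48 h and 1, 0, 0 and 1 at 10 days, those of 48 h replicate 2 and 10 days replicate 1 at 2 steps. H3K4me3 gave 1, 0, 1 and 0 at 48 h and 2, 0, 0 and 0 at 10 days. The Sox9 summits lay 185, 109 and 282 bp into the gene, and peaks of 5 libraries, 3 Sox9 and 2 H3K4me3, merged into chr12:55492246-55492648. That was the most libraries at any of the 515 merged regions of the members, a number shared with Cebpb. A second Nfkbia region, chr12:55501198-55501493 upstream of the gene, had peaks in 2 Sox9 and 1 H3K4me3 library.

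Nfkbie, which encodes another cytoplasmic inhibitor, had 2, 0, 0 and 1 Sox9 end summits at 48 h and 0, 0, 1 and 0 at 10 days, beside no H3K4me3 one at 48 h and 2, 1, 0 and 0 at 10 days. Its Sox9 peak of 2 steps, in 48 h replicate 4, lay 791 bp from the 3′ end and also within 1000 bp of an end of Slc35b2. Its wider window had 2, 2, 1 and 0 H3K4me3 summits at 48 h and 8, 4, 1 and 0 at 10 days, and 2, 0, 0 and 2 and then 0, 1, 1 and 2 for Sox9. Nfkbib, a further inhibitor of this kind, had 0, 1, 0 and 2 H3K4me3 end summits at 48 h and 1, 0, 2 and 0 at 10 days, and no Sox9 one. Its start lies by that of Sirt2, so the 3 summits of 10 days cannot be given to 1 of those genes. Tnfaip3, a ubiquitin-editing brake on the pathway, had 2 H3K4me3 end summits, both in 10 days replicate 1 and 1 of them of 2 steps. Nfkbiz, a nuclear member of the inhibitor family, had no end summit in any library.

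The 7 kinases and adaptors had H3K4me3 end summits in 1 of 28 gene and library pairs at 48 h (3.57%) and in 11 of 28 at 10 days (39.3%), beside 12.5% and 22.1% of all genes, whose share moved the same way with the longer lists of 10 days. Ikbkb, the catalytic kinase of the inhibitor kinase complex, had 0 in each library at 48 h and 1, 1, 0 and 1 at 10 days. Its 3 summits lay within 71 bp of the same gene end, in the region chr8:22706365-22706682. Traf2, an adaptor of tumour necrosis factor receptors, likewise had 0 in each library at 48 h and 2, 1, 1 and 0 at 10 days, with summits 30 bp after and 132 and 27 bp before the start among them. Ikbkb had no Sox9 end summit and Traf2 had 1, at its 3′ end.

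Map3k14, the kinase of the alternative pathway, had end summits at 10 days alone, 1, 0, 0 and 1 for Sox9 and 1, 1, 0 and 0 for H3K4me3. The H3K4me3 peak of 10 days replicate 1 was of 2 steps. In the wider window Map3k14 had the most Sox9 summits of any member, 0, 3, 2 and 0 at 48 h and 5, 2, 1 and 2 at 10 days, beside 1, 3, 1 and 0 and then 3, 2, 4 and 0 for H3K4me3. Per 100 kb of window its 2.77 Sox9 summits a library were fewer than the 6.39 of Cebpb and the 4.85 of Irf1. Birc2, a ubiquitin ligase of the receptor complex, had the reverse balance of antibodies. Its Sox9 end summits numbered 0, 1, 0 and 0 at 48 h and 1, 1, 0 and 0 at 10 days, each at the start shown above, and no H3K4me3 library had one. Its neighbour and paralogue Birc3 had only H3K4me3 ones, in 10 days replicates 1 and 4, the first of 2 steps. Traf1 had H3K4me3 end summits in 2 libraries, and Ikbkg, the scaffold of the kinase complex, in none.

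**Figure D2:**
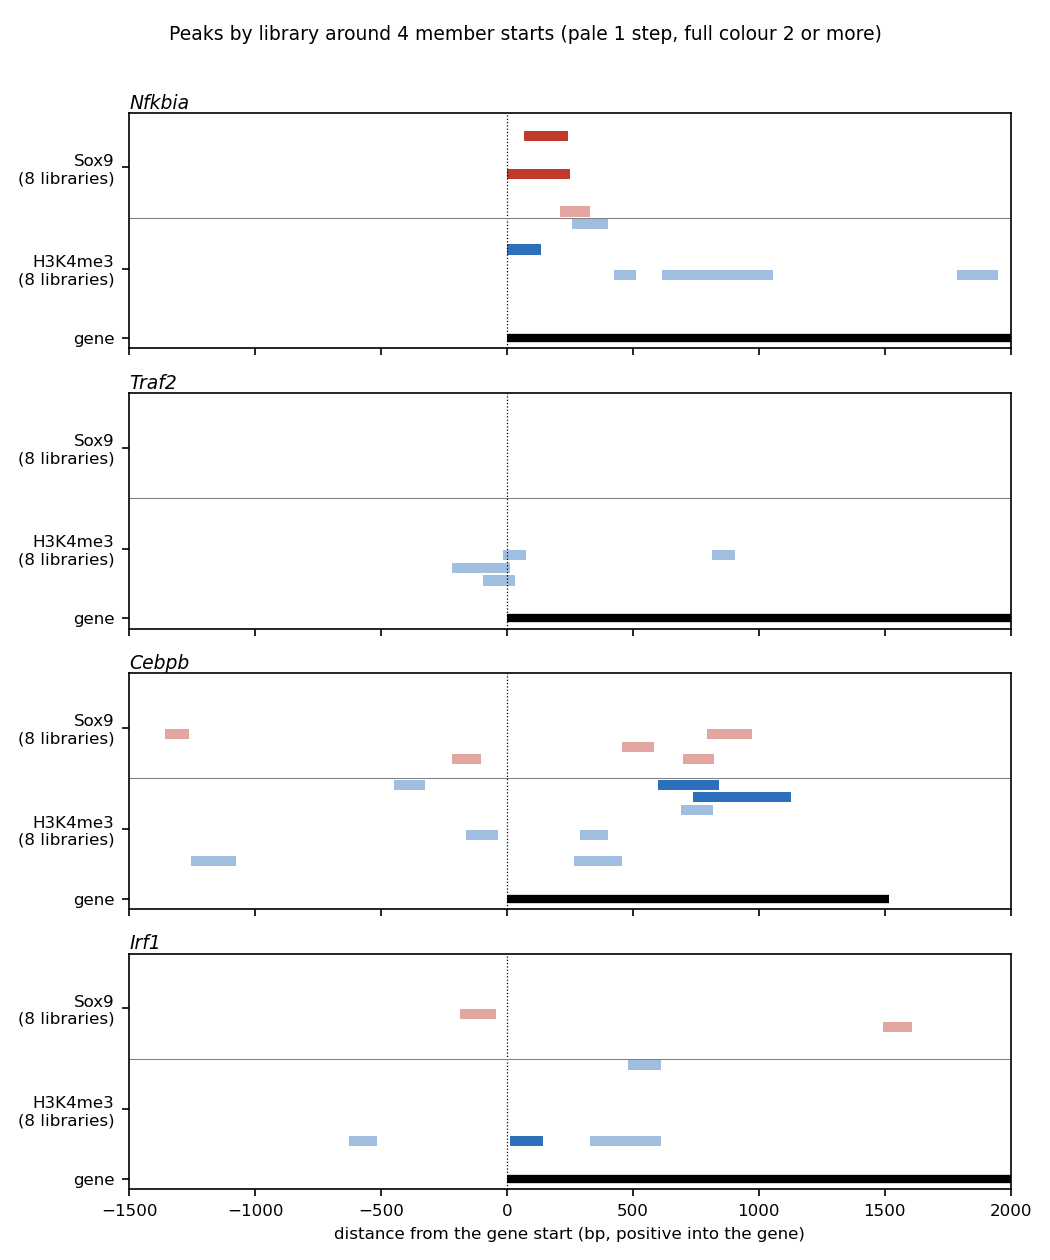
Peaks within 1500 bp before and 2000 bp after the start of 4 members, by distance from the start in bp; each bar is a peak, libraries run downwards from 48 h replicate 1 to 10 days replicate 4 within each antibody, and the black line is the gene. Nfkbia and Cebpb have peaks of both antibodies inside the gene, Traf2 has H3K4me3 peaks of 3 libraries across the start, and the Irf1 peaks of different libraries seldom overlap.

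The 7 cytokine genes had end summits in 3 of 56 pairs for Sox9 (5.36% ± 7.39) and in 8 of 56 for H3K4me3 (14.3% ± 17.1; SD, n = 8 each), within 1 SD of the 9.98% and 17.3% of all genes. Tnf, the prototypic activator of the pathway, had none in any of the 16 libraries, and in the wider window 0, 1, 1 and 0 Sox9 summits at 48 h and 1, 0, 0 and 0 at 10 days. Its H3K4me3 summits there numbered 1, 1, 3 and 0 at 48 h and 2, 1, 1 and 0 at 10 days. Il6, an inducer of the acute phase response, had 1 Sox9 end summit, in 10 days replicate 1, and 1 H3K4me3 one, of 2 steps, in 48 h replicate 1. Over all libraries Il6 had 2 Sox9 summits in the wider window, in 10 days replicates 1 and 4, and H3K4me3 gave 1, 0, 0 and 0 at 48 h and 1, 0, 2 and 0 at 10 days. Il1b, a cytokine processed by the inflammasome, had a single end summit, in H3K4me3 48 h replicate 3. Around it Il1b had 1, 1, 0 and 0 Sox9 summits at 48 h and 0, 0, 1 and 0 at 10 days, and 0, 0, 1 and 0 and then 0, 1, 3 and 0 for H3K4me3. Its relative Il1a had a single end summit in H3K4me3 48 h replicate 2.

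Csf1, the growth factor of macrophages, had the tallest Sox9 peak at any member end when counted in steps, of 3 steps, in 10 days replicate 3 and 458 bp into the gene. H3K4me3 peaks of 48 h replicate 2 and 10 days replicate 1 overlapped it, and the other 7 Sox9 libraries had no end summit there. Il34, a second ligand of the Csf1 receptor, had H3K4me3 end summits in 2 libraries and none for Sox9. Its wider window had 0, 2, 2 and 1 Sox9 summits at 48 h and 5, 0, 0 and 2 at 10 days, and an H3K4me3 summit in 8 of 8 libraries. Csf2, a granulocyte and macrophage growth factor, had 1 end summit of each antibody.

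The chemokine genes among the members were nearly free of peaks at their ends, with 1 of 64 pairs for Sox9 and 3 of 64 for H3K4me3. The length of these genes gave an expectation of 10.4% and 17.9%, against the 1.56% ± 4.42 and 4.69% ± 9.30 found (SD, n = 8 each). The 4 pairs belonged to Cxcl16, with Sox9 in 48 h replicate 4 and H3K4me3 in 10 days replicates 3 and 4, and to Cxcl1, with H3K4me3 in 10 days replicate 4. The Cxcl1 summit lay at the 3′ side, 145 bp from that end. Ccl2, the main attractant of monocytes, had no end summit, and in the wider window 2 Sox9 summits, both in 10 days replicate 1, and 1 H3K4me3 summit in each of 48 h replicate 1 and 10 days replicate 1. Both of those H3K4me3 summits also lie in the window of Ccl7. Cxcl1, an attractant of neutrophils, had in the wider window 0, 0, 1 and 0 Sox9 summits at 48 h and 0, 0, 0 and 3 at 10 days, and 2 of the 3 also lie in that of Cxcl2. Its H3K4me3 summits there were 1 in each of 10 days replicates 1 and 4. Ccl20 had no summit of either antibody in its wider window in 16 libraries, which held for 1.5% of all genes. A gene with no called peak may still carry signal below the caller's threshold, which is not given in the sources used here.

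Regulators carried end summits more often than the cytokine and chemokine genes, with a wide spread between libraries. For Sox9 the shares were 11.0% of 17 regulators and 3.33% of 15 cytokine and chemokine genes, a difference of 7.70 percentage points ± 9.05 (SD, n = 8 libraries) that was above 0 in 5 libraries and below 0 in 3. For H3K4me3 they were 24.3% and 9.17%, a difference of 15.1 ± 19.2 (SD, n = 8), above 0 in 6 and below 0 in 2. With every list held to as many peaks of lowest p as the shortest list has, the differences were 2.11 ± 4.59 for Sox9 and 2.01 ± 7.16 for H3K4me3 (SD, n = 8 each). Lists thinned to equal length by expectation gave 2.17 and 3.21, and peaks of 2 or more steps 1.37 and 3.58. Under all these settings the differences were smaller than 1 SD between libraries. On the full lists gene length gave an expected difference of 0.0198 and 0.507 points. Lists with fewer peaks have lower shares, so their differences in points are not on the scale of the full lists. No length expectation is given for them. Within 3000 bp of an end, on the full lists, the differences were 5.88 ± 7.41 for Sox9 and 18.9 ± 14.2 for H3K4me3 (SD, n = 8 each), the second above 1 SD. A higher share than in the secreted factors was not particular to regulators. No Sox9 end summit was present at 52.9% of regulators, 20.0% of the 10 other members and 73.3% of secreted factors. Over all genes it was 48.5%. For H3K4me3 these shares were 23.5%, 30.0% and 46.7%, beside 31.7%. H3K4me3 recurred in at least 3 of 8 libraries at 41.2%, 40.0% and 0%, beside 19.5% of all genes. Sox9 did so at 17.6%, 10.0% and 0%, beside 6.32%. The groups were chosen with results of these data known, so no p-value is given.

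Most of that difference in H3K4me3 came at 10 days. There the regulators had an end summit in 58.8%, 41.2%, 23.5% and 17.6% of genes in replicates 1 to 4, and the cytokine and chemokine genes in 13.3%, 0%, 6.67% and 13.3%. All genes had 37.2%, 12.4%, 26.7% and 12.2% in the same libraries. The difference at 10 days was 27.0 points ± 19.7 (SD, n = 4), above 0 in 4 of 4, and at 48 h 3.24 ± 9.79 (SD, n = 4). The change of this difference between the times was not tested. The regulators of 10 days replicate 1 come from the longest list, and without the libraries of that pellet the H3K4me3 difference over both times was 10.8 points.

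In the wider window regulators also exceeded the secreted factors, 43.4% against 25.8% for Sox9 and 67.6% against 43.3% for H3K4me3. This window grows with the gene, and the median length was 23222 bp in regulators and 2641 bp in cytokine and chemokine genes. Length alone gave expected differences of 8.92 and 11.2 points, beside the measured 17.5 ± 13.9 and 24.3 ± 14.9 (SD, n = 8 each), which were above 0 in 7 of 8 libraries for each antibody. Restricted in every list to as many peaks of lowest p as the shortest list holds, the differences fell to 0.196 and 5.54 points, while lists thinned to equal length by expectation gave 8.93 ± 7.06 and 11.7 ± 5.22 (SD, n = 8 each). The expected differences from length belong to the full lists, so the values of shortened or thinned lists cannot be set against them. Over all 42 members the wider window held a Sox9 summit in 38.7% ± 14.6 (SD, n = 8), with 39.0% expected from length, and an H3K4me3 summit in 57.7% ± 17.4 (SD, n = 8), with 55.5% expected. H3K4me3 summits were there in 8 of 8 libraries at 3 members, Nfkb1, Ikbkb and Il34 (12.8% of all genes), and Sox9 summits at 0 (3.48% of all genes).

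**Figure D3:**
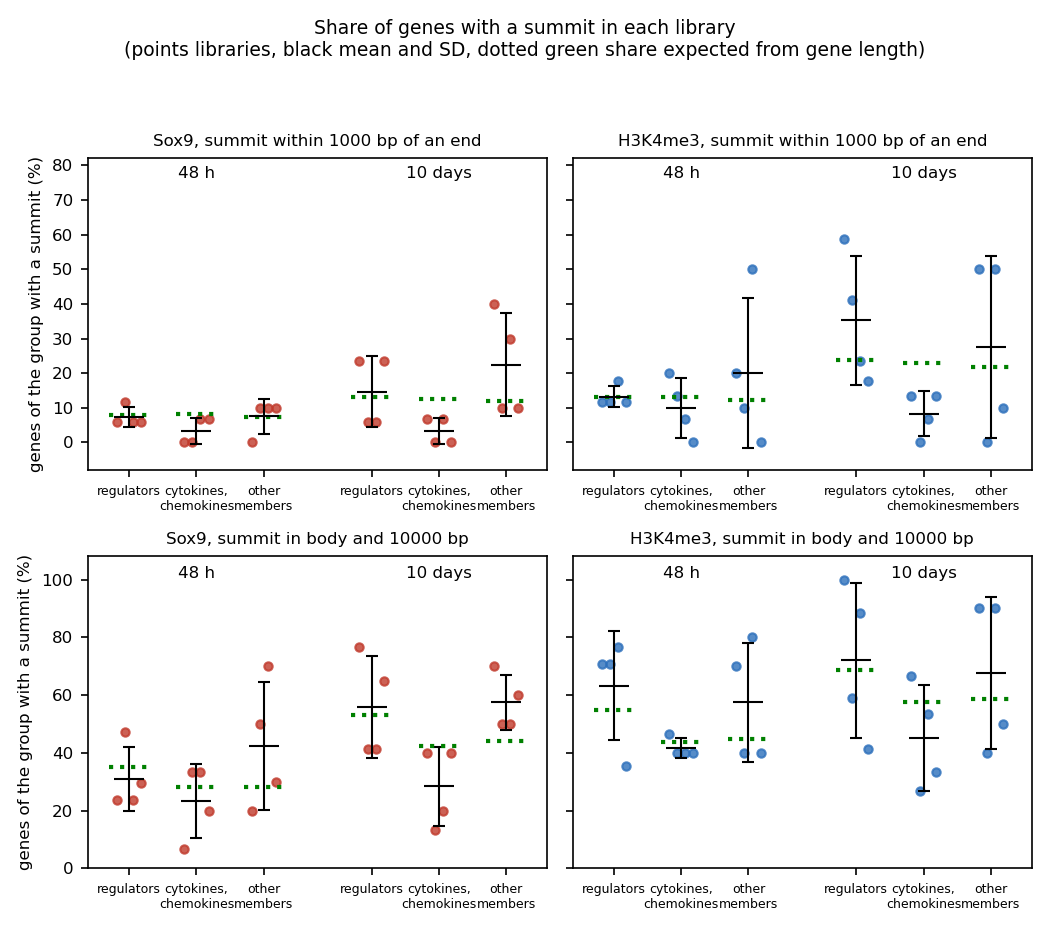
Percent of genes of each group with a summit, by antibody, time and window; points are libraries, black bars the mean and SD of 4 libraries, and dotted green lines the share expected from gene length. Regulators of H3K4me3 at 10 days range from 17.6% to 58.8% at gene ends, and the cytokine and chemokine genes stay at or below 13.3% there.

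Of the 3 genes of Toll-like signalling, Tlr2 and Myd88 had end summits of both antibodies in a few libraries. Tlr2, a sensor of bacterial lipoproteins, had a Sox9 end summit in 48 h replicate 2 and in 10 days replicate 3, and an H3K4me3 one in 48 h replicate 3. Tlr4, the receptor of endotoxin, had 2 Sox9 end summits in 10 days replicate 1 and no H3K4me3 one. In the wider window its 3 Sox9 summits were all in 10 days replicate 1, and its H3K4me3 summits numbered 0, 0, 0 and 1 at 48 h and 0, 2, 1 and 1 at 10 days. Myd88, the adaptor of these receptors, had H3K4me3 end summits in 48 h replicate 3 and 10 days replicates 1 and 3, and 1 Sox9 one. Of its 4 end summits, 3 lay at the 3′ side and 1, of H3K4me3, 253 bp after the start.

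Among the other transcription factors Cebpb stood out by number. Cebpb is an effector of the acute phase response and, in a gene of 1518 bp, had Sox9 end summits of 0 in each library at 48 h and 1, 1, 2 and 0 at 10 days, all of 1 step. H3K4me3 gave 2, 1, 1 and 0 at 48 h and 2, 0, 1 and 0 at 10 days, with peaks of 2 steps in 48 h replicates 1 and 2. The merged region chr2:167689513-167690044, inside the gene, held peaks of 5 libraries, 3 H3K4me3 at 48 h and 2 Sox9 at 10 days. With Sox9 and H3K4me3 end summits in 8 of 16 libraries together, Cebpb was the most often marked member. The share of all genes marked in as many libraries is not given here, so this number has no background beside it. In the wider window of Cebpb the Sox9 summits numbered 0, 1, 0 and 0 at 48 h and 5, 1, 2 and 2 at 10 days, and the H3K4me3 ones 3, 1, 3 and 0 and then 2, 0, 3 and 0.

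Cebpd, its relative, had the tallest peak of all at a member end by that count, of 4 steps, in H3K4me3 10 days replicate 1 and 150 bp outside the lower-numbered gene end. H3K4me3 end summits of Cebpd numbered 0, 0, 1 and 0 at 48 h and 2, 0, 1 and 0 at 10 days, and Sox9 had 1, in 48 h replicate 3. Irf1, an interferon-induced factor, had Sox9 end summits at 10 days alone, 2, 0, 0 and 1, and H3K4me3 ones in 48 h replicate 1 and, 4 of them, in 10 days replicate 3. The wider window of Irf1 held 0, 0, 1 and 0 Sox9 summits at 48 h and 7, 2, 0 and 1 at 10 days, beside 2, 0, 1 and 0 and then 2, 0, 6 and 0 for H3K4me3. Stat3, the effector of interleukin-6 family receptors, had H3K4me3 end summits in 10 days replicates 1 and 4, 387 and 359 bp into the gene and the first of 2 steps. Socs3, the feedback inhibitor of Stat3, had 1 Sox9 end summit.

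Of the 2 further induced genes, Icam1, an adhesion molecule for leukocytes, had H3K4me3 end summits of 0, 0, 1 and 0 at 48 h and 2, 0, 1 and 0 at 10 days, and 1 Sox9 one in 10 days replicate 3. The summits at its 3′ end, 1 of each antibody, also lie by Icam4, and in the wider window it had 1, 0, 2 and 1 H3K4me3 summits at 48 h and 4, 3, 7 and 0 at 10 days. Sox9 gave 2, 0, 1 and 0 and then 1, 1, 1 and 1 there. Tnfaip2 had no end summit, but 4 libraries at 10 days, 2 Sox9 with peaks of 2 steps and 2 H3K4me3, shared the region chr12:111445700-111446088 inside the gene.

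Peaks of 2 or more steps at an end occurred at 3 of 42 members for Sox9, Nfkbia, Nfkbie and Csf1 (4.41% of all genes), and at 11 for H3K4me3 (19.8%). The 11 were Nfkb1, Rela, Nfkbia, Tnfaip3, Birc3, Map3k14, Il6, Stat3, Irf1, Cebpb and Cebpd. In all, 4 of 35 Sox9 and 12 of 81 H3K4me3 end summits were of 2 or more steps, and 12 of the 116 were also within 1000 bp of an end of another gene. Of the 515 merged regions of the members, 455 (88.3%) came from 1 library, 17 from 3 or more, and 31 held peaks of both antibodies. No such count is given here over all genes, so it cannot be told whether these shares are particular to the members.

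Where a strand was listed, end summits of H3K4me3 lay at the start rather than the 3′ end in 48 of 62 cases (77.4%, beside 75.2% over all genes with a strand) and those of Sox9 in 18 of 30 (60.0%, beside 70.9%). Of those at a start, 12 of 18 for Sox9 and 39 of 48 for H3K4me3 were downstream of it, beside 67.6% and 64.4% over all genes with a strand. The median position was 294.5 bp into the gene for H3K4me3 and 74.5 bp for Sox9.

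**Figure D4:**
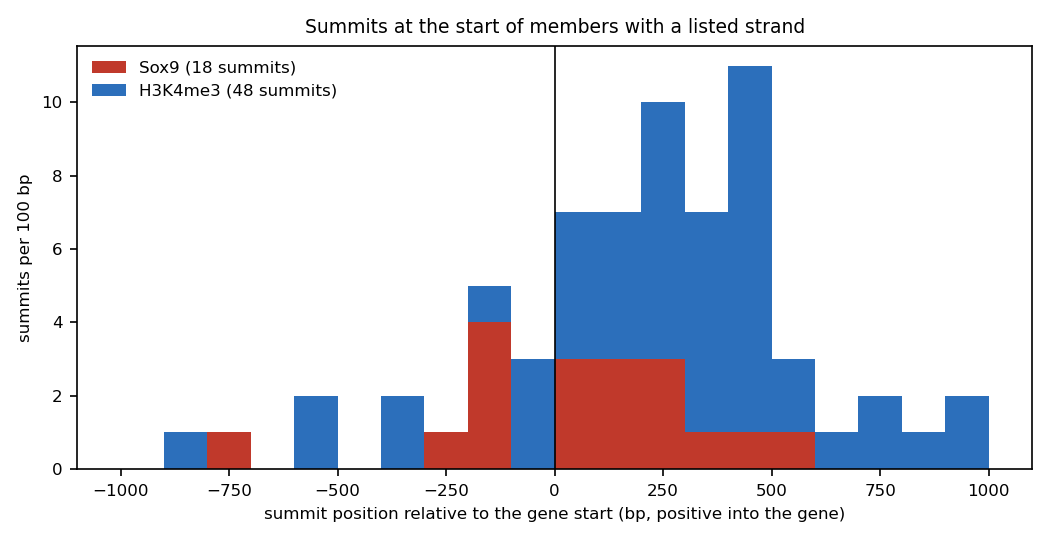
Number of summits per 100 bp by distance from the gene start, for the 31 members with a listed strand, stacked by antibody. Of the 48 H3K4me3 summits 39 lie downstream of the start, and the median of the 48 is 294.5 bp into the gene. The 18 Sox9 summits spread on both sides of the start.

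The tests per gene asked whether single members differed between times or antibodies. Fisher's exact test (two-sided) on the presence of an end summit, adjusted over all genes by the Benjamini-Hochberg method, called 0 of 21887 genes and 0 of 42 members in each comparison. The smallest p it allows is 0.0286 with 4 libraries against 4 and 0.000155 with 8 against 8. Between times, no gene could therefore pass the adjustment unless most genes reached that p. The counts of 0 and the adjusted p-values between times thus do not tell whether a member changed. At an unadjusted p under 0.05 there were 5 genes for Sox9 between times (0.0228%), 52 for H3K4me3 between times (0.238%) and 132 between antibodies (0.603%), and no member was among them.

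Between times, the largest contrasts of the members were presence in 3 libraries at 10 days and absence from all 4 at 48 h. Cebpb had that pattern for Sox9 (0.585% of all genes did), and Nfkb1, Traf2 and Ikbkb for H3K4me3 (2.17%), each with an exact p of 0.143 and an adjusted p of 1 by Fisher's test. No member had the opposite pattern, which 0.146% of all genes had for Sox9 and 0.187% for H3K4me3. Sox9 end summits were in more libraries at 10 days than at 48 h for 13 members and in fewer for 6, and H3K4me3 ones in more for 15 and in fewer for 8. The lists held 14793 to 85415 Sox9 peaks at 10 days and 7706 to 26520 at 48 h, and over all genes the Sox9 share was 12.3% against 7.64%, and over the members 12.5% ± 6.84 against 5.95% ± 2.38 (SD, n = 4 each). For H3K4me3 the members had 23.8% ± 11.8 at 10 days and 13.7% ± 7.11 at 48 h (SD, n = 4 each), and all genes 22.1% and 12.5%. The differences of the shares, 6.55 points for Sox9 and 10.1 for H3K4me3, became -1.19 and 1.79 when every list was held to the same number of peaks by p. Without 10 days replicate 1 they were 3.57 and 4.56.

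Summits in the wider window per 10000 peaks of a list allow for list length. Cebpb had 0.729 ± 0.290 Sox9 summits per 10000 peaks at 10 days and 0.0943 ± 0.189 at 48 h (SD, n = 4 each), without overlap between the times (exact permutation p = 0.0286, adjusted p = 1). It was the only member of 42 whose Sox9 libraries did not overlap, as were those of 1.48% of all genes. Relb had 0.199 ± 0.162 H3K4me3 summits per 10000 peaks at 10 days and 0.693 ± 0.223 at 48 h (SD, n = 4 each), again without overlap (exact permutation p = 0.0286, adjusted p = 1) and the only such member, beside 1.94% of all genes. Both shares are near the background.

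Between antibodies, Relb and Nfkbib had an H3K4me3 end summit in 4 of 8 libraries and a Sox9 one in 0 of 8 (exact p = 0.0769 and adjusted p = 1 by Fisher's test for each). Birc2 had the opposite, 0 of 8 and 3 of 8 (exact p = 0.2, adjusted p = 1). In summits per 10000 peaks of the wider window, Ikbkg had 0.0146 ± 0.0414 for Sox9 and 0.367 ± 0.390 for H3K4me3 (SD, n = 8 each; exact permutation p = 0.00699, adjusted p = 0.885). Il1a had 0 in the 8 Sox9 libraries and 0.189 ± 0.148 for H3K4me3 (SD, n = 8; exact permutation p = 0.00699, adjusted p = 0.885), with a summit in 6 of the 8. These were the only 2 members with an unadjusted p under 0.05, which 4.79% of all genes had, and neither passed the adjustment.

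A list of 54 further pathway genes, among them receptors, adaptors, ubiquitin enzymes and induced genes, was counted in the same way. Sox9 summits lay at their ends in 10.2% ± 5.94 of genes and H3K4me3 summits in 23.1% ± 16.9 (SD, n = 8 each), with 10.4% and 18.4% expected from length. Sox9 recurred in at least 3 of 8 libraries at 2 of the 54 (3.70%), below the 6.32% of all genes. The 2 were Tab2 and Irak4, which encode adaptor and kinase steps below the interleukin-1 receptor, each in 3 libraries. H3K4me3 recurred so at 17 (31.5%), beside 19.5% of all genes. It reached 4 of 8 libraries at Cyld and Sharpin, which act on ubiquitin chains, and at the kinase gene Map3k7. The same held at the receptor genes Ltbr and Il6ra and at the cytokine gene Lif. Of the chemokine genes in this list, Cxcl12 and Cx3cl1 each had Sox9 end summits in 2 libraries, and H3K4me3 ones in 3 and 2. Cxcl5 had H3K4me3 end summits in 2 libraries and Ccl3 and Ccl4 in 1 each, without Sox9, and Cxcl9 had neither. Few end summits were thus not a trait of every chemokine gene. None of the 54 passed the adjusted test in any comparison, and between times none could unless most genes reached the smallest p.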

How the data were processed

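Each of the 16 antibody libraries had a deposited list of peaks, called with its pellet's input as control, per the file headers and peak names; the submitters' processing notes name Partek 10, Bowtie2, Bowtie, MACS3 and the build mm10. Read filters, duplicates, scaling and the peak threshold are not given in the sources used here, nor is the depth of a library, so precision rests on 4 replicates per group. Each list gives the authors' fold over local background (a ratio), p-value and q-value as deposited −log10 values, and a deposited whole-number score that was not used. Fold and p-value, used only within a list, were solved for the pileup, assuming a fold with 1 added above and below and a Poisson tail as p-value. At least 99.58% of the peaks of a list then lay within 0.05 of a whole number of steps and 0 lay between 1 and 2 steps. What 1 step is in reads is not known.

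Gene positions came from RefSeq on GRCm38.p6 (mm10), and strands and promoters from RefSeq promoter entries. Summits were counted per gene and library with Python 3.11.15, NumPy 2.4.6, pandas 2.3.3 and SciPy 1.17.1, and figures drawn with Matplotlib 3.10.9. Presence was compared by Fisher's exact test and summits per 10000 peaks by exact permutation, both two-sided and adjusted over 21887 genes by Benjamini-Hochberg at 0.05. Both tests and the solver were tested on simulated data.

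The members and lists were chosen with earlier results of these data known. All 42 members are described. Values in every library are given for those with an end summit in at least 3 of 8 libraries of an antibody or of 2 or more steps, the 3 with most summits in the wider window for each antibody, and Nfkb1, Rela, Nfkbia, Tnf, Il6, Il1b, Ccl2, Cxcl1 and Tlr4. Irf1 and Cebpb tied for the last such place for Sox9.

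Libraries of 1 pellet are paired by the labels, since each pellet was split; their deviations from the group means over all genes correlated at -0.0062 to 0.0195. No 2 lists of an antibody shared more than 13 identical peaks.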

Additional observations from a re-analysis of the deposited data

Results flagged for a closer look

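Of 24 groups of 4 libraries examined, 5 had 1 library far from the other 3. Chance gives about 1 such group in 20 for continuous values, a rate that does not carry over here, since shares move in steps of 1 gene and 3 equal libraries with 1 that differs by a single gene are enough. A Sox9 end summit was at 2.38% of the members in 48 h replicate 1, the shortest list, and at 7.14% in the other 3 libraries. Among regulators, the share at gene ends was 11.8% in Sox9 48 h replicate 2 beside 5.88% in the others, and 17.6% in H3K4me3 48 h replicate 3 beside 11.8%. In the wider window, regulators had 35.3% in H3K4me3 48 h replicate 4, the shortest H3K4me3 list, beside 70.6% to 76.5% in the others. The cytokine and chemokine genes had 46.7% there in H3K4me3 48 h replicate 1 beside 40.0%.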

How the results depend on the processing

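Differences are in percentage points. Shares are lower in lists with fewer peaks, so differences there are not on the scale of the full lists. With every list held to its peaks of lowest p, as many as the shortest list has, the change of the Sox9 share of members from 48 h to 10 days went from 6.55 to -1.19 at gene ends and from 15.5 to -1.19 in the wider window, and the excess of regulators over cytokine and chemokine genes in the wider window from 17.5 to 0.196 (Sox9) and from 24.3 to 5.54 (H3K4me3). With peaks of 2 or more steps alone the Sox9 change at gene ends was 0, and the excess 0.343 and 7.70. Within 3000 bp of an end the Sox9 change between times was 12.5. Lists thinned to equal length by expectation, an alternative chosen after seeing the data, gave 0.453 and 0.205 for the Sox9 change at ends and in the wider window, and -0.867 in place of -9.52 for Sox9 minus H3K4me3 at ends. Around starts alone, members minus the length expectation went from -1.05 to 1.42 for Sox9; for Sox9 in the wider window it was -0.338 and reached 1.92 in the gene body alone, within 1 SD. The Sox9 change at ends ranged from 3.57 to 9.13 with 1 replicate left out, the lowest without 10 days replicate 1, and the H3K4me3 change in the wider window (7.14) from -0.992, without that replicate, to 14.1. The H3K4me3 change at ends (10.1) ranged from 4.56, also without that replicate, to 13.3, and was 1.79 with equal lists by p and 0.809 thinned. A replicate block cannot move these means of equal groups (6.55, 10.1 and, for Sox9 minus H3K4me3, -9.52), and the SD went from 5.12 to 8.99 for Sox9, from 9.76 to 9.60 for H3K4me3 and from 8.53 to 7.20 between antibodies; 0 genes passed with the block, and 17 rather than 132 had an unadjusted p under 0.05 between antibodies. Numbers do not pair pellets across times (correlations -0.00725 to 0.0107). Under every alternative run, 0 genes passed the adjusted test. Between times the smallest p of Fisher's test with 4 libraries against 4 is 0.0286, so none could pass unless most genes reached it. Those counts therefore do not bear on stability. Of 230 alternative values 218 stayed within 1 SD between libraries or, for counts, at 0, and 12 moved further. The cause of the moves was not tested. The 218 include those counts and large shifts within a wide SD. For H3K4me3 at ends, the change between times went from 10.1 to 0.809 when thinned. There the excess of regulators over cytokine and chemokine genes went from 15.1 to 2.01 with equal lists by p. Unknown depth and peaks of mostly 1 step limit every value.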
